A study of Mus musculus with 18 samples.

Results

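The cytosolic ribosomal protein genes encode the proteins of the large and the small subunit of the ribosomes that translate the mRNAs of nuclear genes. They were chosen by name alone, as genes with a protein_coding transcript whose symbol is Rpl, Rps or Rplp followed by a number, with at most a few further letters or a digit (as in *Rps3a1* or *Rpl22l1*), or *Rpsa*. This gave 85 of the 54752 genes in the RNA tables, and all 85 were among the 22523 genes of the footprint tables. The core proteins of the large subunit are encoded by 46 of them and those of the small subunit by 31, and the other 8 (*Rpl3l*, *Rpl7l1*, *Rpl10l*, *Rpl22l1*, *Rpl36al*, *Rpl39l*, *Rps27l* and *Rps27rt*) are paralogues of a core gene. A ribosome holds a single copy of nearly every ribosomal protein, so cells make these proteins in matched amounts and degrade those that are not assembled. Their mRNAs belong to the 5′TOP class, which begin with a C and a run of pyrimidines and whose translation depends on mTOR signalling, and they are abundant in neurons, in cell bodies and in dendrites and axons.

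The authors applied RNA-seq of poly(A) RNA and ribosome profiling, in which the mRNA fragments covered by ribosomes (footprints) are sequenced, to the cerebellum of mice of 3 genotypes at 3 weeks of age, with 3 libraries for each genotype and assay. All mice were C57BL/6J (B6J), a strain that carries a mutation in *n-Tr20*, a neuronal gene for the tRNA that reads the arginine codon AGA, so the wild type controls carried it too. The B6J.*Gtpbp1*-/- mice were congenic and homozygous for a targeted allele that lacks sequence of exons 3 and 4 of *Gtpbp1* and holds PGK-Neo there, and in B6J-*Gtpbp2*-/- mice *Gtpbp2* carried the nmf205 point mutation. Mice of both sexes were used, a footprint library came from 1 cerebellum, and the labels place every RNA library in Batch 1 and every footprint library in Batch 2, so assay and batch cannot be told apart. The RNA libraries held between 37794598 and 52114400 estimated counts and the footprint libraries between 3630823 and 10442573 footprints on coding sequence. Of these, the 85 genes took 0.666 to 0.803% of the RNA counts and 0.481 to 0.763% of the footprints.

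The targeted genes were examined first. *Gtpbp1*, a GTPase related to translation factors, had RNA CPM (counts scaled to the library size with TMM factors) of 70.9, 77.8 and 66.7 in B6J, 43.99, 41.7 and 43.9 in B6J.*Gtpbp1*-/- and 58.6, 72.1 and 65.7 in B6J-*Gtpbp2*-/-. Its footprint CPM was 73.6, 117 and 84.8 in B6J, 31.99, 25.5 and 35.6 in B6J.*Gtpbp1*-/- and 79.3, 66.8 and 62.1 in B6J-*Gtpbp2*-/-. On both scales the 3 B6J.*Gtpbp1*-/- libraries lay below the other 6, and RNA of the gene was still counted. In TPM (a scale that takes transcript length into account) *Gtpbp1* overlapped between genotypes, at 43.5, 38.4 and 40.4 in B6J, 34.5, 35.1 and 41.1 in B6J.*Gtpbp1*-/- and 40.3, 43.2 and 39.9 in B6J-*Gtpbp2*-/-. *Gtpbp2*, its paralogue, had footprint CPM of 44.7, 36.1 and 38.4 in B6J, 36.2, 43.3 and 58.3 in B6J.*Gtpbp1*-/- and 28.9, 26.4 and 7.54 in B6J-*Gtpbp2*-/-. Here the 3 B6J-*Gtpbp2*-/- libraries were the lowest, and replicate 3 was the lowest of them, while RNA CPM of *Gtpbp2* was 85.9, 74.02 and 88.1 in B6J, 109, 100.5 and 104 in B6J.*Gtpbp1*-/- and 65.5, 75.4 and 72.7 in B6J-*Gtpbp2*-/-, so that B6J-*Gtpbp2*-/- overlapped B6J and B6J.*Gtpbp1*-/- was highest. In TPM *Gtpbp2* had 114, 91.7 and 98.97 in B6J, 139, 160.0 and 162 in B6J.*Gtpbp1*-/- and 127, 145 and 151 in B6J-*Gtpbp2*-/-, with all 6 mutant libraries above B6J, so the order of B6J-*Gtpbp2*-/- and B6J depended on the scale.

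Cerebellar markers were present in every library. The 5 granule neuron genes, led by *Gabra6*, summed to 2344, 2423 and 2423 TPM in B6J, 1536, 1519 and 1805 in B6J.*Gtpbp1*-/- and 1669, 1750 and 1560.3 in B6J-*Gtpbp2*-/-, so both mutants lay below B6J. Within this list, *Gabra6*, *Neurod1*, *Cbln3* and *Zic1* were lower in all 6 mutant libraries. *Fat2* overlapped, at 113, 119 and 89.1 TPM in B6J, 95.7, 96.7 and 119 in B6J.*Gtpbp1*-/- and 93.0, 101 and 90.6 in B6J-*Gtpbp2*-/-. The 4 Purkinje cell genes, led by *Pcp2*, ranged from 3226 to 4829 TPM and overlapped between genotypes, as did the astrocyte genes led by *Slc1a3* (1261 to 1567 TPM). The oligodendrocyte genes, led by *Mbp*, summed to 7934.7, 6790.2 and 7881.8 TPM in B6J, 6483.1, 6588.8 and 5606 in B6J.*Gtpbp1*-/- and 9315.2, 7012.8 and 7488.4 in B6J-*Gtpbp2*-/-. All B6J.*Gtpbp1*-/- libraries were below the others, and B6J-*Gtpbp2*-/- overlapped B6J. Within the astrocyte list, *Gfap* was higher in all 6 mutant libraries, with TPM of 114, 99.8 and 112 in B6J, 371, 259 and 284 in B6J.*Gtpbp1*-/- and 232, 320.1 and 279 in B6J-*Gtpbp2*-/-, and *Slc1a3* was lower in all 6. The microglia genes summed to 50.6, 52.4 and 57.3 TPM in B6J, 127, 109.6 and 113 in B6J.*Gtpbp1*-/- and 111, 113 and 119.7 in B6J-*Gtpbp2*-/-, and the endothelial genes to 55.6, 55.6 and 58.2, 82.1, 93.6 and 88.0, and 79.95, 103 and 109, so both lists were higher in the RNA of both mutants. In bulk tissue, fewer cells of a type and less RNA per cell cannot be told apart. Choroid plexus genes, led by *Ttr*, varied within each genotype, from 109 to 3675 TPM over the 9 libraries. RNA of the erythroid genes, led by *Hbb-bs*, summed to 5447.9, 3078.5 and 4068.5 TPM in B6J. The sums were 7618.5, 6589 and 8428.9 in B6J.*Gtpbp1*-/-, all above B6J, and 1385.7, 6517.8 and 3712.5 in B6J-*Gtpbp2*-/-, which overlapped B6J.

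In wild type cerebellum, RNA of the core genes was spread widely around a middle level. The median over the 77 core genes was 336 TPM. *Rplp1*, which encodes a protein of the P-stalk that recruits translation factors, was highest with 777 ± 18.1 TPM (mean ± SD, n = 3), next to *Rps24* with 763 ± 108 and *Rpl13a* with 739 ± 20.6. The libraries of *Rplp1* (756 to 789) lay just above those of *Rpl13a* (716 to 755), while *Rps24* (695 to 887) overlapped both. At the other end were *Rpl5* with 63.5 ± 4.84, *Rps12* with 30.9 ± 10.99 and *Rpl12* with 14.1 ± 3.24 TPM. These 3 levels come with a limit from the counting, because most reads of these mRNAs were assigned to near-identical copies elsewhere in the genome. For *Rpl12*, 88.2, 92.1 and 87.9% of the counts of the gene and its copies were on the copies in the 3 B6J libraries, and for *Rps12* 88.7, 90.9 and 84.9%. With the copies added, *Rpl12* reached 326, 339 and 355 TPM and *Rps12* 441, 438 and 465 TPM in B6J, near or above the median of the core genes.

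Footprint density, in footprint CPM per kb of coding sequence, gave a different order. The length is that of all annotated coding sequence of a gene merged. *Rps21* was highest in B6J with 536 ± 111, then *Rps29* with 419 ± 51.1, *Rpl38* with 367 ± 119, *Rpl41* with 339 ± 107 and *Rplp2* with 312 ± 9.25. *Rps21* and *Rpl38* were not among the genes chosen by rule and are named because their values were seen. All 5 encode short proteins, and the coding sequence of *Rpl41*, the smallest, has 25 codons (75 bases, beside 138 bases of merged coding sequence, so its place in this order depends on the length used), against a median of 152 and a maximum of 419 (*Rpl4*) over the core genes. Across the 77 core genes, RNA level in TPM and footprint density in B6J had a Spearman correlation of 0.32, a description of genes that share the same libraries and a library scaling. The 77 include *Rps10* and *Rpl13a*, from whose footprints no level is read below.

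**Figure D1:**
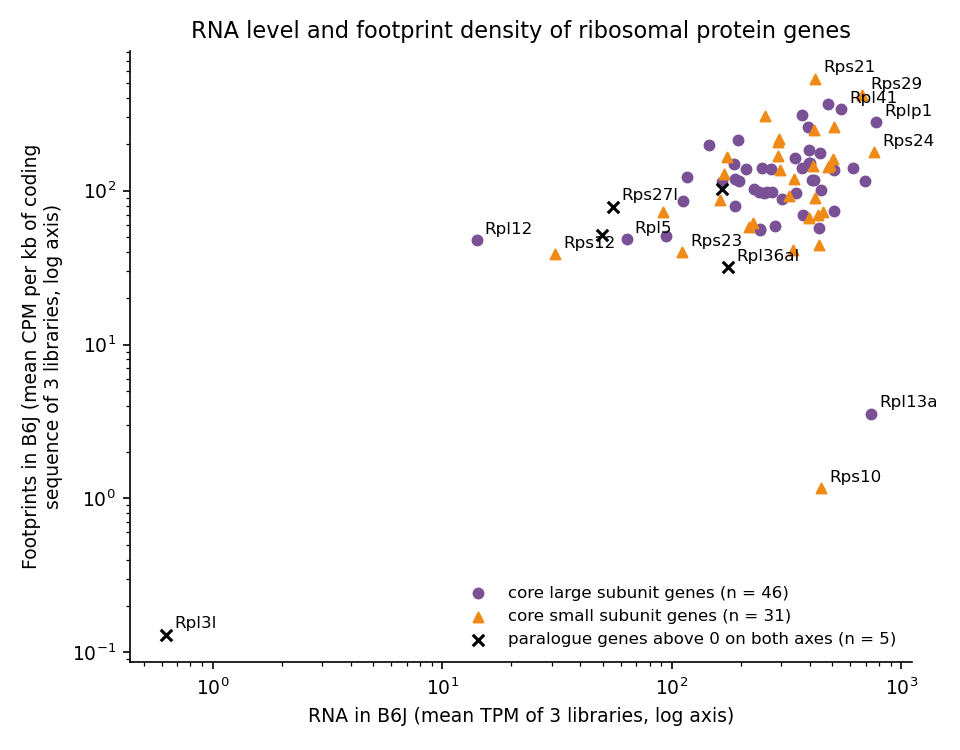
Mean RNA level (TPM, x axis) and mean footprint CPM per kb of coding sequence (y axis) of each ribosomal protein gene in the 3 B6J libraries, on log axes, with circles for core large subunit genes, triangles for core small subunit genes and crosses for paralogues. *Rps10* and *Rpl13a* lie far below the other core genes in footprints, at 1.17 and 3.55, while their RNA means are 446 and 739 TPM.

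A pair of core genes had almost no footprints in any genotype, and both were named after this was seen. *Rps10*, a protein of the small subunit head, had 3, 6 and 0 footprints in B6J, 0, 2 and 2 in B6J.*Gtpbp1*-/- and 0, 2 and 1 in B6J-*Gtpbp2*-/-, beside 2754 to 4091 RNA counts. *Rpl13a*, of the large subunit, had 6, 20 and 8 footprints in B6J, 6, 8 and 7 in B6J.*Gtpbp1*-/- and 20, 12 and 11 in B6J-*Gtpbp2*-/-, beside 6557 to 10297 RNA counts. In the annotation, 80.1% of the coding sequence of *Rps10* (chr17:27630418-27636669, GRCm38) is shared with the readthrough gene *RPS10-NUDT3* and 90.3% of that of *Rpl13a* (chr7:45125558-45128761, GRCm38) with *Gm45713*. These were the 2 core genes with coding sequence shared with another annotated gene, and both readthrough genes were listed at 0 footprints in all 9 libraries. Whether reads on shared sequence were left uncounted is not given in the sources used here, so no level is read from the footprints of *Rps10* and *Rpl13a*.

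Copies also limit what can be counted for the family as a whole. Of the core coding sequences, 32 of 77 had every window of 30 bases, about the length of a footprint, present somewhere else in the genome, and the median gene had 97.5% of its windows elsewhere. In RNA, 308 genes of the annotation were counted as near-identical to a ribosomal protein gene, with a cutoff of 50% of their 31-base words shared. Of the 85 genes, 70 had at least 1 such copy, and the copies took 7.50 to 8.27% of the counts of genes and copies together. The share was uneven: it was above 50% of the counts for *Rpl12*, *Rpl5*, *Rps12* and *Rps23* and above 10% for 14 genes. RNA values of those genes are uncertain for that reason. Of the genes described below, *Rpl37a*, *Rps29*, *Rps15a*, *Rps3a1*, *Rpl23a*, *Rpl41*, *Rplp1*, *Rps24* and *Rpl13a* had under 1% of their RNA counts on copies. This does not cover footprints, where 100% of the windows of *Rpl41* and 88.5% of those of *Rpl37* were present elsewhere.

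In RNA, the ribosomal protein genes of B6J.*Gtpbp1*-/- cerebellum rose in 4 cases and fell in 4, with a median at that of all genes. *Rpl5*, *Rpl10a*, *Rps15a* and *Rps3a1* were higher than in B6J, and *Rpl13*, *Rpl37a*, *Rps29* and *Rpl23a* were lower. By edgeR, with p-values adjusted over every gene tested by the Benjamini-Hochberg method, 8 of the 83 tested passed a threshold of 0.05, or 9.64%, next to 13.8% of all genes tested (3398 of 24577). The median log2 difference was 0.03, as over all genes, and 49 of 83 were above 0. At an unadjusted p under 0.05 there were 19 of 83 (22.9%), next to 26.3% of all genes. The large subunit had a median of 0.02 over 46 genes and the small subunit 0.06 over 31. All 3 mutant libraries were above all 3 of B6J for 14 genes and below for 7, where 16.0% and 15.9% of all genes did so.

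The balance of higher and lower depended on the scaling. With library totals in place of TMM, chosen after seeing the data, the median of all genes moved from 0.03 to 0.15 and that of the ribosomal protein genes to 0.15, and 16 passed as higher and 2 as lower (18 of 83, next to 3838 of all 24577 genes). With upper quartile scaling 12 were higher and 3 lower (15 of 83, next to 3349 of all genes), and with DESeq2 10 higher and 4 lower (14 in all, where DESeq2 called 4284 of 24577 genes). On the TPM scale the family had a median of 0.25 for B6J.*Gtpbp1*-/- and of 0.17 for B6J-*Gtpbp2*-/-, where all genes had 0.20 and 0.18. For B6J.*Gtpbp1*-/-, family and all genes both had a median of 0.08 with upper quartile scaling and of 0.03 with DESeq2.

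*Rpl5*, a large subunit protein that with *Rpl11* and 5S rRNA binds *Mdm2* when it is not in a ribosome, had the largest difference in RNA among the core genes. Its RNA CPM was 38.5, 45.04 and 42.6 in B6J, 66.9, 68.5 and 70.5 in B6J.*Gtpbp1*-/- and 52.1, 70.7 and 62.1 in B6J-*Gtpbp2*-/-. Every mutant library was above every B6J library, and B6J.*Gtpbp1*-/- was tight while B6J-*Gtpbp2*-/- was spread. The log2 difference was 0.71 ± 0.08 (± SE) in B6J.*Gtpbp1*-/- (edgeR, adjusted p = 8.9e-05) and 0.55 ± 0.11 in B6J-*Gtpbp2*-/- (adjusted p = 0.0126). The direct test between the mutants gave 0.15 ± 0.10 with an unadjusted p of 0.164. Most counts of this gene and its copies went to the copies, chiefly *Gm15500*, and 99.9% of the 31-base words of *Gm15500* occur in *Rpl5*. The copy had 128, 131 and 146 CPM in B6J, 144, 145 and 145 in B6J.*Gtpbp1*-/- and 133, 143 and 148 in B6J-*Gtpbp2*-/-. *Gm15500* itself did not pass (0.10 ± 0.07, adjusted p = 0.471 in B6J.*Gtpbp1*-/- and 0.06 ± 0.08, adjusted p = 0.718 in B6J-*Gtpbp2*-/-). With the copies added to *Rpl5*, a choice made after seeing the data, the difference shrank to 0.27 in B6J.*Gtpbp1*-/- (adjusted p = 0.0296) and to 0.20 in B6J-*Gtpbp2*-/- (adjusted p = 0.190). In B6J.*Gtpbp1*-/- the call held in all 16 alternatives, with adjusted p between 1.7e-12 and 0.0296, while in B6J-*Gtpbp2*-/- it was also lost without B6J replicate 1 (0.49, adjusted p = 0.0714) and with an offset for effective transcript length (0.40, adjusted p = 0.0888). Footprint CPM of *Rpl5* overlapped between genotypes, at 51.4, 31.9 and 45.7 in B6J, 71.2, 42.7 and 34.2 in B6J.*Gtpbp1*-/- and 73.4, 64.1 and 43.9 in B6J-*Gtpbp2*-/-.

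The other 3 genes that rose in B6J.*Gtpbp1*-/- had smaller differences. *Rpl10a*, of the large subunit, had RNA CPM of 36.9, 37.2 and 32.2 in B6J, 49.4, 42.7 and 43.9 in B6J.*Gtpbp1*-/- and 35.97, 39.3 and 39.8 in B6J-*Gtpbp2*-/-. *Rps15a*, of the small subunit, had 128, 142 and 130.4 in B6J, 165, 164 and 158 in B6J.*Gtpbp1*-/- and 151, 158 and 169 in B6J-*Gtpbp2*-/-. *Rps3a1*, also of the small subunit, had 163, 169 and 156 in B6J, 203, 192 and 187 in B6J.*Gtpbp1*-/- and 183, 187 and 190.1 in B6J-*Gtpbp2*-/-. In each case the B6J.*Gtpbp1*-/- libraries were above the B6J libraries with no overlap, and for *Rps15a* and *Rps3a1* the B6J-*Gtpbp2*-/- libraries were too. The log2 differences in B6J.*Gtpbp1*-/- were 0.36 ± 0.09 for *Rpl10a* (adjusted p = 0.0235), 0.28 ± 0.07 for *Rps15a* (adjusted p = 0.0186) and 0.26 ± 0.07 for *Rps3a1* (adjusted p = 0.0307), and in B6J-*Gtpbp2*-/- 0.12 ± 0.09 (adjusted p = 0.531), 0.25 ± 0.08 (adjusted p = 0.0647) and 0.20 ± 0.07 (adjusted p = 0.110). Between the mutants these 3 genes differed by 0.24 ± 0.09, 0.03 ± 0.07 and 0.06 ± 0.07, none of which passed.

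Each of these 3 calls was lost when certain single libraries were left out, and those of *Rpl10a* and *Rps15a* also depended on how transcripts were counted or scaled. The call of *Rpl10a* was lost without B6J.*Gtpbp1*-/- replicate 1 (adjusted p = 0.0959) or 2 (0.0510), without B6J replicate 1 (0.0550) or 3 (0.0573), with sex as a covariate (0.0734), with protein_coding transcripts alone (0.736), with the length offset (0.345) and with -ps pseudogenes (0.103) or all near-identical genes (0.104) added, and 40.3 to 55.2% of its counts were on *Rpl10a-ps1*. *Rps15a* was lost without B6J.*Gtpbp1*-/- replicate 1 (0.0559) or 2 (0.0796), without B6J replicate 1 (0.107), with the replicate block (0.0700), with sex (0.0801) and with the length offset, where its difference was 0.01 (0.967). *Rps3a1* was lost in the block (0.0971), with sex (0.115), and without B6J.*Gtpbp1*-/- replicate 1 (0.0952) or 2 (0.0921) or any of B6J replicates 1 (0.111), 2 (0.0540) and 3 (0.0708), and held with protein_coding transcripts alone, the length offset and either kind of copy added.

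Among the genes that fell in B6J.*Gtpbp1*-/-, *Rpl37a* and *Rps29* encode short zinc-binding proteins and had few reads on copies. *Rpl37a*, of the large subunit, had RNA CPM of 57.4, 56.2 and 54.8 in B6J, 44.3, 40.4 and 41.7 in B6J.*Gtpbp1*-/- and 52.99, 51.7 and 40.99 in B6J-*Gtpbp2*-/-. Its 3 B6J.*Gtpbp1*-/- libraries lay below all B6J libraries, and B6J-*Gtpbp2*-/- replicate 3 lay among them. *Rps29*, of the small subunit, had 59.9, 60.2 and 54.2 in B6J, 43.5, 49.1 and 40.9 in B6J.*Gtpbp1*-/- and 46.7, 53.9 and 44.6 in B6J-*Gtpbp2*-/-. All 6 mutant libraries of *Rps29* were below the B6J libraries. *Rpl37a* fell by 0.41 on the log2 scale (SE 0.08, adjusted p = 0.00359) and kept its call under every alternative run, with adjusted p between 5.8e-05 and 0.0309. *Rps29* fell by 0.38 (SE 0.09, adjusted p = 0.0120), a call lost without B6J replicate 1 (0.0567) or 2 (0.0545), with library totals (0.0776) and with the length offset (0.133). In B6J-*Gtpbp2*-/- the differences were -0.21 ± 0.10 for *Rpl37a* (adjusted p = 0.270) and -0.26 ± 0.09 for *Rps29* (adjusted p = 0.118).

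*Rpl13*, of the large subunit, and its copy *Gm12918* moved in opposite directions. RNA CPM of *Rpl13* was 82.4, 100.2 and 81.9 in B6J, 59.4, 63.2 and 60.5 in B6J.*Gtpbp1*-/- and 73.9, 76.1 and 54.7 in B6J-*Gtpbp2*-/-. *Gm12918*, whose 31-base words all occur in *Rpl13*, had 16.2, 14.0 and 20.4 CPM in B6J, 33.8, 30.6 and 31.4 in B6J.*Gtpbp1*-/- and 23.3, 27.7 and 31.7 in B6J-*Gtpbp2*-/-. All 6 mutant libraries were below B6J for *Rpl13* and above it for the copy, and among B6J-*Gtpbp2*-/- replicate 3 had the lowest *Rpl13* and the highest copy. The log2 difference in B6J.*Gtpbp1*-/- was -0.53 ± 0.09 for *Rpl13* (adjusted p = 0.00121) and 0.92 ± 0.13 for *Gm12918* (adjusted p = 0.000477), and in B6J-*Gtpbp2*-/- -0.37 ± 0.13 (adjusted p = 0.113) and 0.71 ± 0.16 (adjusted p = 0.0179). Together the gene and its copies had 320, 375 and 334 TPM in B6J, 382, 383 and 383 in B6J.*Gtpbp1*-/- and 363, 403 and 351 in B6J-*Gtpbp2*-/-, so that B6J.*Gtpbp1*-/- lay just above B6J and B6J-*Gtpbp2*-/- overlapped it. With the copies added, the difference in B6J.*Gtpbp1*-/- was -0.17 (adjusted p = 0.151), so the fall of *Rpl13* was not separated from how reads were split between the 2 genes.

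*Rpl23a*, which lies at the exit of the tunnel for the growing peptide, had RNA CPM of 98.8, 103 and 107 in B6J, 86.6, 89.04 and 83.5 in B6J.*Gtpbp1*-/- and 87.5, 92.9 and 83.1 in B6J-*Gtpbp2*-/-. All 6 mutant libraries were below the B6J libraries. It fell by 0.25 on the log2 scale in B6J.*Gtpbp1*-/- (SE 0.07, adjusted p = 0.0306), beside -0.23 ± 0.08 in B6J-*Gtpbp2*-/- (adjusted p = 0.0966). The call was lost without any 1 library, at adjusted p of 0.0748, 0.0768 and 0.0897 without B6J.*Gtpbp1*-/- replicates 1, 2 and 3 and 0.0569, 0.0747 and 0.0592 without B6J replicates 1, 2 and 3. It was also lost with upper quartile scaling (0.0827), library totals (-0.13, 0.272), the block (0.0951), sex (0.0831) and the length offset (0.166).

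In the RNA of B6J-*Gtpbp2*-/- cerebellum, *Rpl5* was the ribosomal protein gene that rose, and none fell. By edgeR 1 of 83 passed, or 1.20%, next to 8.63% of all genes tested (2146 of 24859), and 13 had an unadjusted p under 0.05 (15.7%, next to 22.5% of all genes). The median was 0.01, all genes had 0.03, and 48 of 83 were above 0. DESeq2 called 4 (*Rpl5*, *Rpl13*, *Rpl30* and *Rps15a*; 3409 of all 24859 genes), and library totals 11, all higher, next to 2352 of all genes. All 3 mutant libraries were above B6J for 12 genes and below for 12, where 14.5% and 14.1% of all genes did so. The 2 comparisons share the B6J libraries. Without B6J replicate 1 no gene was called in B6J-*Gtpbp2*-/- and 3 in B6J.*Gtpbp1*-/- (*Rpl5*, *Rpl13* and *Rpl37a*), and without B6J-*Gtpbp2*-/- replicate 1 there were 3 in B6J-*Gtpbp2*-/-.

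Compared directly, the RNA of the mutants differed at no ribosomal protein gene. EdgeR called 0 of 83 and 0.0595% of all genes (15 of 25190), DESeq2 also called 0 (46 of all 25190 genes), and 1 had an unadjusted p under 0.05 (1.20%, next to 3.57% of all genes). It was *Rpl10a*, with 0.24 ± 0.09 and an adjusted p by edgeR of 1.00. The median over the family was 0.02, with sex as a covariate -0.08.

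**Figure D2:**
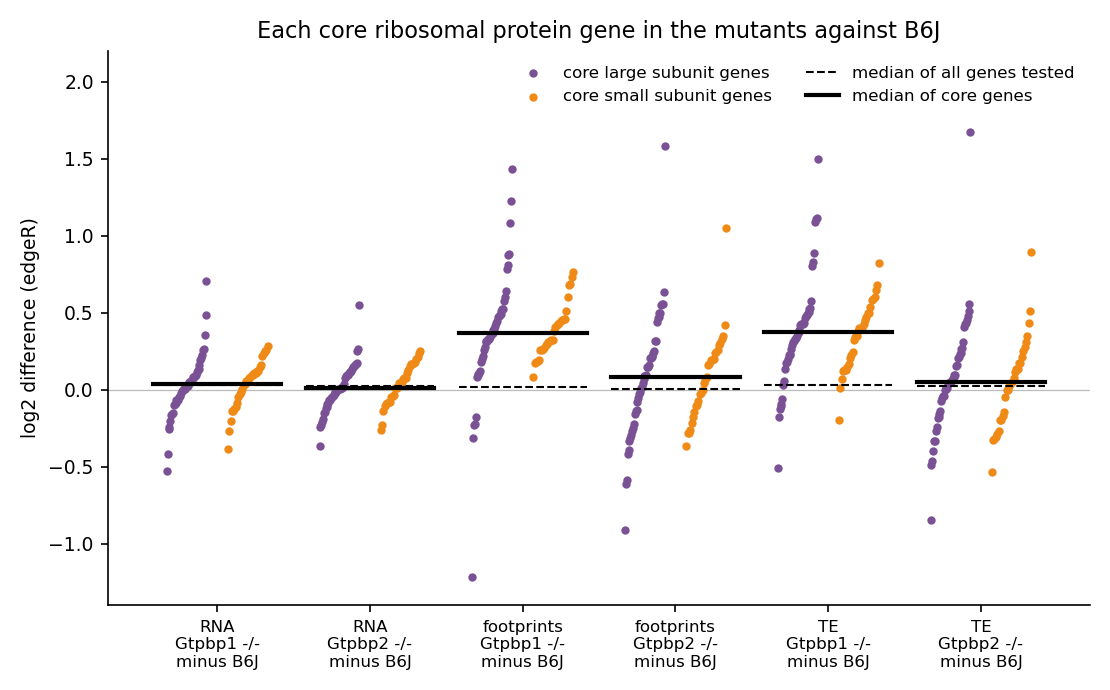
Log2 difference of each core ribosomal protein gene (y axis, edgeR) in RNA, footprints and translational efficiency (TE) of each mutant against B6J, with purple points for large and orange points for small subunit genes, solid lines for the median of the core genes and dashed lines for that of all genes tested. The core genes of B6J.*Gtpbp1*-/- have medians of 0.37 in footprints and 0.38 in TE, while the other 4 medians lie between 0.01 and 0.08.

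In footprints, the family in B6J.*Gtpbp1*-/- was shifted upward as a group, while single genes mostly did not pass. Footprints of *Rpl41* and *Rpl37* rose, and 74 of the 80 genes tested had a difference above 0, with a median of 0.36 on the log2 scale where all genes had 0.01. By edgeR 2 of 80 passed, or 2.50%, next to 0.745% of all genes tested (104 of 13956). At an unadjusted p under 0.05 there were 22 of 80 (27.5%), next to 12.6% of all genes, and DESeq2 called 4 (*Rpl32*, *Rpl37*, *Rpl38* and *Rpl41*), next to 406 of all 13956 genes. All 3 B6J.*Gtpbp1*-/- libraries were above all 3 B6J libraries for 22 of 80 genes, where 9% of all genes tested (1256 of 13956) did so, and below for 1, where 8.79% did. The direction of the median was the same with library totals (0.37), upper quartile scaling (0.40) and DESeq2 (0.37).

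The shift differed between the B6J.*Gtpbp1*-/- libraries. Against the mean of B6J, the median log2 ratio over the 80 genes was 0.64 in replicate 1, 0.12 in replicate 2 and 0.31 in replicate 3, with 76, 53 and 67 genes above 0. The B6J libraries had 0.00, -0.05 and 0.05, and the B6J-*Gtpbp2*-/- libraries 0.26, 0.08 and -0.05. Replicate 1 was therefore the highest, and replicate 2 lay below the highest B6J-*Gtpbp2*-/- library. Without B6J.*Gtpbp1*-/- replicate 1 the median was 0.23 in place of 0.36 and no gene passed, and without B6J replicate 1 or 2 none passed either. As a share of all footprints, the family had 0.516, 0.481 and 0.513% in B6J, 0.763, 0.555 and 0.648% in B6J.*Gtpbp1*-/- and 0.614, 0.537 and 0.490% in B6J-*Gtpbp2*-/-. By the Y-linked gene *Ddx3y*, B6J.*Gtpbp1*-/- replicate 1 and B6J replicates 1 and 2 were the male footprint libraries, and with sex as a covariate the median was 0.39 with 1 gene called, *Rpl37*.

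Genes of other tissues and cell types were looked at in the same footprints. The 6 bone and muscle genes, led by *Col1a1*, summed to 274, 670 and 890 footprint CPM in B6J, 1582, 1380.3 and 2652 in B6J.*Gtpbp1*-/- and 605, 975 and 474 in B6J-*Gtpbp2*-/-, so B6J.*Gtpbp1*-/- was highest in all 3 libraries, and all 6 had a difference above 0 from B6J although none passed (*Myh1* 3.41 ± 0.72, adjusted p = 0.0528, *Col1a2* 1.35 ± 0.30, adjusted p = 0.0640, and *Col1a1* 1.81 ± 0.58, adjusted p = 0.257). *Myh1* was at 0 in B6J replicate 1 and B6J-*Gtpbp2*-/- replicate 1, and *Ckm* in B6J replicate 1 and B6J-*Gtpbp2*-/- replicate 3. Their RNA sums were 23.9 to 52.5 TPM and overlapped. The 4 microglia genes, led by *Csf1r*, summed to 135, 163 and 129 footprint CPM in B6J, 336, 192 and 378 in B6J.*Gtpbp1*-/- and 193, 198 and 260 in B6J-*Gtpbp2*-/-, and the 3 endothelial genes, led by *Cldn5*, to 215, 136 and 234, 507, 367 and 302, and 433, 348 and 379. Both mutants were above B6J for these 2 lists, with none of their genes at 0. Erythroid genes, led by *Hbb-bs*, were at 588, 425 and 914 footprint CPM in B6J, 2091, 696 and 1219.8 in B6J.*Gtpbp1*-/- and 894, 2976 and 724 in B6J-*Gtpbp2*-/-. Choroid plexus genes, led by *Ttr*, were at 5582, 3769 and 50.8 footprint CPM in B6J, 13675, 184 and 12040 in B6J.*Gtpbp1*-/- and 467, 9491 and 9606 in B6J-*Gtpbp2*-/-. Within B6J.*Gtpbp1*-/- the library with the smallest shift of the family, replicate 2, had the fewest, while within B6J-*Gtpbp2*-/- and B6J the library with the fewest, B6J-*Gtpbp2*-/- replicate 1 and B6J replicate 3, had the highest shift, so the order was not the same across genotypes. The erythroid sums had the order of the shift within B6J and within B6J.*Gtpbp1*-/-. Within B6J-*Gtpbp2*-/- replicate 2 had the highest erythroid sum and replicate 1 the highest shift. Granule neuron genes, led in footprints by *Fat2*, were at 3962, 5671 and 4367 footprint CPM in B6J, 3218, 2374 and 3357 in B6J.*Gtpbp1*-/- and 2401, 2281 and 2024 in B6J-*Gtpbp2*-/-, with all 6 mutant libraries below B6J. The part of these cells in the footprints of ribosomal protein genes was not tested.

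*Rpl41*, a basic peptide of the large subunit that bridges both subunits, had the largest rise. Its footprint CPM was 42.9, 34.3 and 63.1 in B6J, 155, 98.97 and 126 in B6J.*Gtpbp1*-/- and 183, 102 and 139 in B6J-*Gtpbp2*-/-. All 6 mutant libraries were above all B6J libraries, while its RNA CPM was 97.7, 88.8 and 96.01 in B6J, 94.5, 91.2 and 84.6 in B6J.*Gtpbp1*-/- and 89.3, 95.4 and 81.6 in B6J-*Gtpbp2*-/- and overlapped. Footprints of *Rpl41* rose 2.69-fold in B6J.*Gtpbp1*-/- (log2 1.43 ± 0.25, edgeR, adjusted p = 0.0197) and 3.00-fold in B6J-*Gtpbp2*-/- (log2 1.58 ± 0.25, adjusted p = 0.00610), and the mutants differed by -0.17 ± 0.23 (adjusted p = 0.828). In B6J.*Gtpbp1*-/- the call was lost without B6J.*Gtpbp1*-/- replicate 1 (adjusted p = 0.0738), without B6J replicate 1 (0.155) or 2 (0.0891) and with sex (0.0516), and in B6J-*Gtpbp2*-/- with sex (log2 1.16, 0.143) among the alternatives run. With 25 codons, the coding sequence holds few positions for a footprint.

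*Rpl37*, another short zinc-binding protein of the large subunit, rose in B6J.*Gtpbp1*-/-. Its footprint CPM was 52.6, 36.99 and 41.1 in B6J, 123, 75.7 and 106 in B6J.*Gtpbp1*-/- and 66.8, 58.6 and 60.02 in B6J-*Gtpbp2*-/-. The 3 genotypes did not overlap, with B6J-*Gtpbp2*-/- between B6J and B6J.*Gtpbp1*-/-, while its RNA CPM overlapped, with means of 40.4 ± 4.05, 43.9 ± 2.81 and 42.6 ± 1.79 in the 3 genotypes. The log2 difference was 1.22 ± 0.23 in B6J.*Gtpbp1*-/- (adjusted p = 0.0256) and 0.50 ± 0.18 in B6J-*Gtpbp2*-/- (adjusted p = 0.180), and between the mutants 0.71 ± 0.20 (adjusted p = 0.280), so a difference between them was not shown. The call in B6J.*Gtpbp1*-/- was lost without B6J.*Gtpbp1*-/- replicate 1 (0.111), without B6J replicate 1 (0.0884), 2 (0.126) or 3 (0.0612) and with the block (0.0550). *Rpl38* and *Rpl32*, also of the large subunit, were named because DESeq2 called them. *Rpl38* had 67.3, 58.3 and 105 in B6J, 198, 128 and 164 in B6J.*Gtpbp1*-/- and 136, 119 and 88.2 in B6J-*Gtpbp2*-/-, and *Rpl32* had 45.2, 33.2 and 63.8 in B6J, 108, 71.6 and 82.1 in B6J.*Gtpbp1*-/- and 85.6, 56.1 and 69.7 in B6J-*Gtpbp2*-/-. For both the B6J.*Gtpbp1*-/- libraries were above B6J while B6J-*Gtpbp2*-/- overlapped B6J, with differences in B6J.*Gtpbp1*-/- of 1.08 ± 0.24 (edgeR, adjusted p = 0.0645) and 0.88 ± 0.25 (adjusted p = 0.139).

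**Figure D3:**
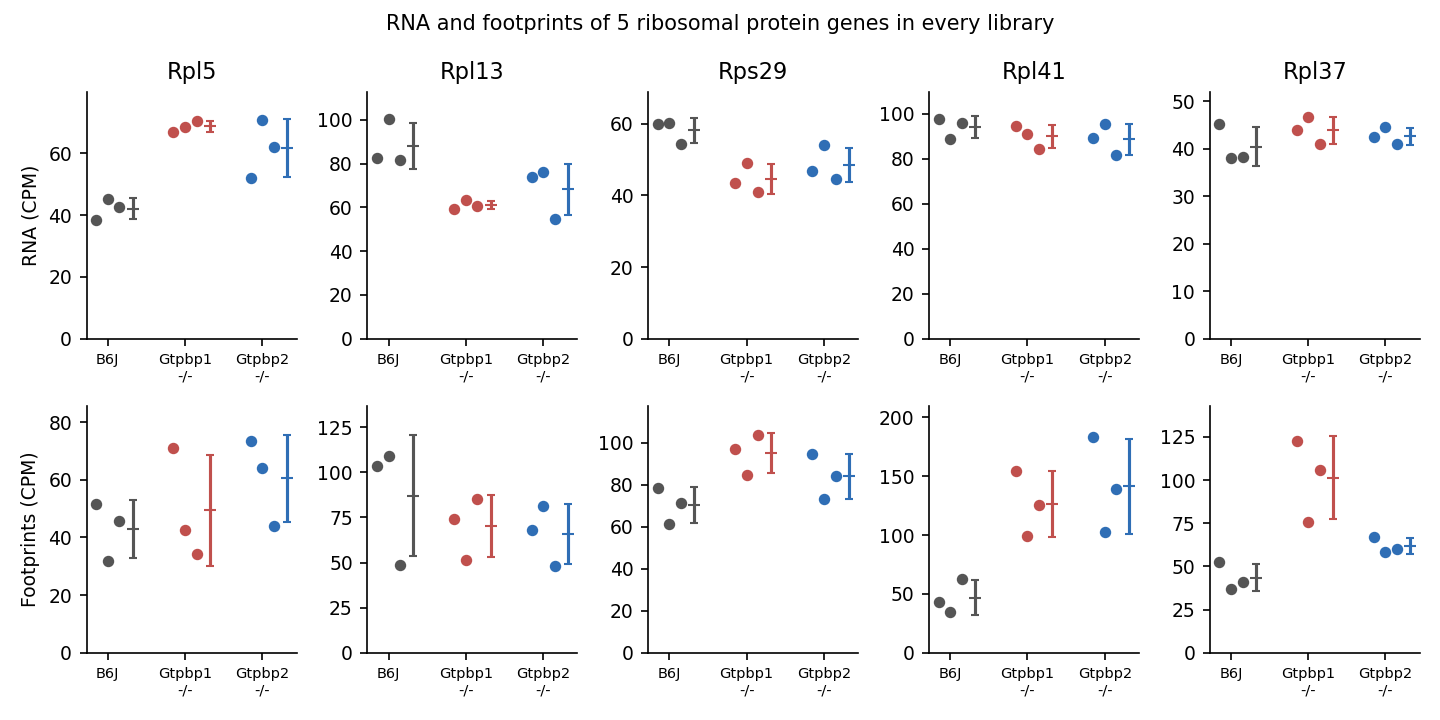
RNA CPM (top) and footprint CPM (bottom) of *Rpl5*, *Rpl13*, *Rps29*, *Rpl41* and *Rpl37* in each of the 3 libraries of B6J, B6J.*Gtpbp1*-/- and B6J-*Gtpbp2*-/-, with 1 point per library and the mean ± SD beside the points. *Rpl41* footprints of the mutants lie between 99.0 and 183 CPM, all above the B6J values of 34.3 to 63.1, while its RNA overlaps.

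Large and small subunits shared the shift in B6J.*Gtpbp1*-/-. Over 46 large subunit genes the median was 0.37 and 41 were above 0, from -1.22 for *Rpl13a*, with its few footprints, to 1.43 for *Rpl41*. All 30 small subunit genes tested were above 0, with a median of 0.35 and a range from 0.08 for *Rps15a* to 0.76 for *Rps18*, and none passed by edgeR, although 9 had an unadjusted p under 0.05, and none by DESeq2. Single genes had an SD of 0.42 in the large and 0.17 in the small subunit. The large subunit SD includes *Rpl13a*, from whose footprints no level is read, while *Rps10* was not tested, so the 2 SDs are not compared. A difference between the 2 medians was not tested.

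The footprints of B6J-*Gtpbp2*-/- gave *Rpl41* as the ribosomal protein gene that rose and no shift of the family. By edgeR 1 of 80 passed, next to 2.94% of all genes tested (406 of 13797), and 14 had an unadjusted p under 0.05 (17.5%, next to 17.1% of all genes). The median was 0.08, where all genes had 0.01, and 48 of 80 were above 0. All 3 mutant libraries were above all 3 of B6J for 8 of 80 genes, where 11% of all genes (1523 of 13797) did so, and below for 7, where 11.6% did. DESeq2 called 2, next to 655 of all 13797 genes. *Rps23*, of the decoding centre, was called by DESeq2 and had footprint CPM of 21.9, 9.91 and 19.7 in B6J, 32.4, 17.5 and 33.2 in B6J.*Gtpbp1*-/- and 40.5, 40.4 and 27.4 in B6J-*Gtpbp2*-/-. Its difference was 1.05 ± 0.28 by edgeR (adjusted p = 0.0577). *Rpl29* was the lowest gene, with 52.3, 61.4 and 28.4 in B6J, 48.1, 34.3 and 38.2 in B6J.*Gtpbp1*-/- and 33.1, 25.8 and 17.3 in B6J-*Gtpbp2*-/- and a difference of -0.91 ± 0.30 (adjusted p = 0.150). Both were named after their values were seen. Leaving out B6J replicate 3 raised the count to 6 (*Rpl6*, *Rpl32*, *Rpl38*, *Rpl41* and *Rps23* higher, *Rpl29* lower), leaving out B6J-*Gtpbp2*-/- replicate 3 to 2 (*Rpl41* and *Rps23*), the block gave 2 (*Rpl41* higher and *Rpl29* lower), and sex as a covariate 0, with 8 at an unadjusted p under 0.05. Counts over all genes are not given for these last settings, so the changes are not read as particular to the family. All B6J-*Gtpbp2*-/- footprint libraries were female.

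Between the mutants, footprints of the family were higher in B6J.*Gtpbp1*-/- at a median of 0.28, with 70 of 80 genes above 0, where all genes had 0.00. No gene passed by edgeR, which called 0% of all genes (0 of 14142), and 24 of 80 had an unadjusted p under 0.05, next to 10.8% of all genes. DESeq2 called 100 of all 14142 genes and 1 of the family, *Rpl27a*, which had footprint CPM of 65.1, 75.7 and 67.2 in B6J, 90.8, 76.8 and 90.1 in B6J.*Gtpbp1*-/- and 51.9, 38.5 and 48.3 in B6J-*Gtpbp2*-/-. For *Rpl27a* the 3 B6J-*Gtpbp2*-/- libraries were the lowest, and its difference was 0.89 ± 0.18 (edgeR, adjusted p = 0.228). The median was 0.18 without B6J.*Gtpbp1*-/- replicate 1 and 0.16 with sex as a covariate.

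Translational efficiency (TE), the footprints of a gene relative to its RNA, was tested as the interaction of assay and genotype. In B6J.*Gtpbp1*-/- the family had a median TE difference of 0.37, with 71 of 79 genes above 0, where all genes had 0.03. No gene passed by edgeR, which called 0% of all genes tested (0 of 13086), while 18 of 79 had an unadjusted p under 0.05 (22.8%, next to 8.94% of all genes). DESeq2 called 3, *Rpl37*, *Rpl41* and *Rps29*, all higher, next to 58 of all 13086 genes. In B6J-*Gtpbp2*-/- the median was 0.05, with 49 of 80 above 0, where all genes had 0.03. Again edgeR called none, next to 0.00773% of all genes (1 of 12931), with 10 at an unadjusted p under 0.05 (12.5%, near the share of all genes), and DESeq2 called *Rpl41* as higher and *Rps15a* as lower, next to 160 of all 12931 genes. Between the mutants the median was 0.30 with 67 of 80 above 0, edgeR called none and 0% of all genes (0 of 13292), 22 had an unadjusted p under 0.05 (27.5%, next to 11.2%), and DESeq2 called *Rpl27a*, *Rps26* and *Rps28*, next to 155 of all 13292 genes. Large and small subunits had medians of 0.37 and 0.39 in B6J.*Gtpbp1*-/- and of 0.05 each in B6J-*Gtpbp2*-/-.

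*Rpl41* had the largest TE difference in both mutants. It was 1.49 ± 0.27 in B6J.*Gtpbp1*-/- (edgeR, adjusted p = 0.299) and 1.67 ± 0.29 in B6J-*Gtpbp2*-/- (adjusted p = 0.0820), and without replicate 3 of B6J it passed in both. *Rps29* had footprint CPM of 78.5, 61.4 and 71.5 in B6J, 96.8, 84.5 and 103 in B6J.*Gtpbp1*-/- and 94.5, 73.1 and 84.1 in B6J-*Gtpbp2*-/-. Every B6J.*Gtpbp1*-/- library of *Rps29* was above B6J in footprints and below it in RNA, and its TE difference was 0.82 ± 0.19 in B6J.*Gtpbp1*-/- (adjusted p = 0.400) and 0.51 ± 0.19 in B6J-*Gtpbp2*-/- (adjusted p = 0.295). *Rpl5* had the lowest TE difference in B6J.*Gtpbp1*-/-, -0.51 ± 0.31 (adjusted p = 0.648), and *Rps15a* had -0.54 ± 0.15 in B6J-*Gtpbp2*-/- (adjusted p = 0.239).

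Within the core genes, the size of the differences went with the length of the coding sequence in B6J.*Gtpbp1*-/-. The Spearman correlation of coding length with the TE difference was -0.58 (75 genes), with the footprint difference -0.36 (76 genes) and with the RNA difference 0.37 (77 genes). In B6J-*Gtpbp2*-/- the values were -0.11 for TE (76 genes), 0.05 for footprints (76 genes) and 0.35 for RNA (77 genes). AGA codons, which the mutated tRNA reads, numbered 0 to 12 per gene with a median of 2, and 13 core genes had none. In B6J.*Gtpbp1*-/-, AGA codons per 100 codons had correlations of 0.00 with the footprint and 0.01 with the TE difference. The number of AGA codons per gene had -0.14 and -0.20 there. In B6J-*Gtpbp2*-/- the values were -0.02 and -0.01 per 100 codons and 0.04 and -0.0004 for the number. The points share their libraries and the correlations only describe them.

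**Figure D4:**
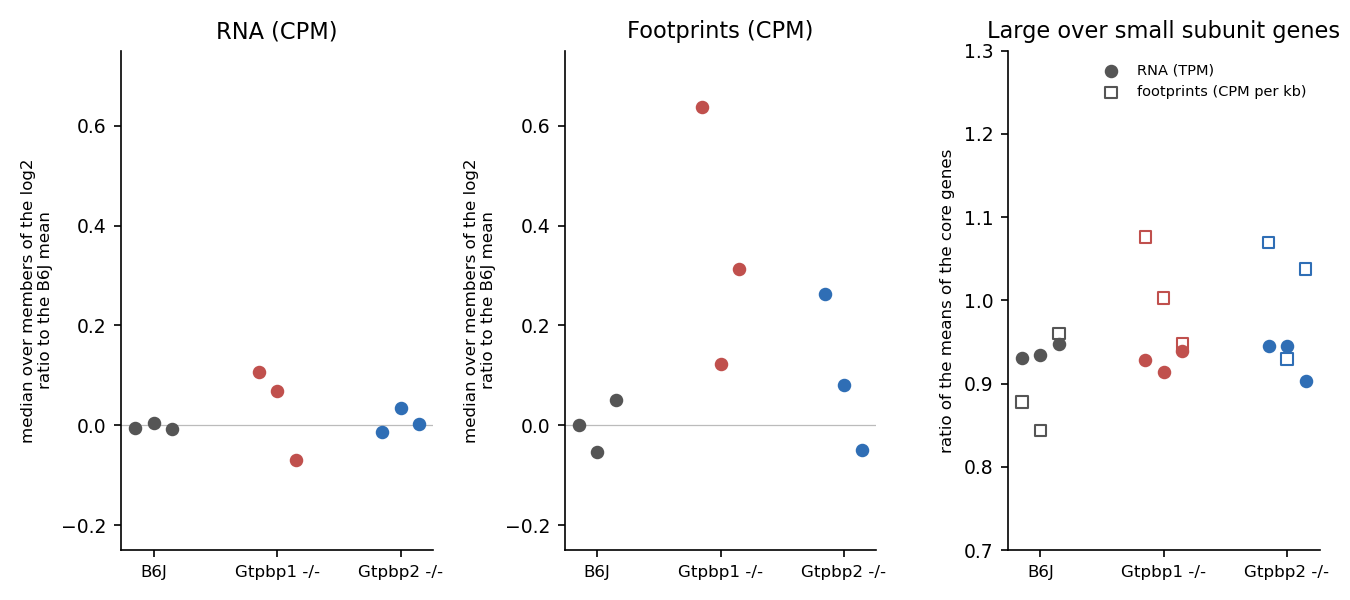
Each point is a library, grouped by genotype on the x axis, and the left and middle panels show the median over the ribosomal protein genes of the log2 ratio to the B6J mean, in RNA CPM and in footprint CPM. The right panel shows the mean of the core large subunit genes over that of the small subunit genes in TPM (filled circles) and in footprint CPM per kb of coding sequence (open squares), where the RNA ratios of all 9 libraries are close to each other and below 1.

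Stoichiometry of the subunits in RNA differed little between genotypes when all core genes were summed. The core genes together had 25878, 26278 and 25837 TPM in B6J, 32531, 31284 and 29091 in B6J.*Gtpbp1*-/- and 28620, 30327 and 30152 in B6J-*Gtpbp2*-/-, or 2.60 ± 0.02, 3.10 ± 0.17 and 2.97 ± 0.09% of all TPM (mean ± SD, n = 3), so on this scale both mutants were above B6J, with the median of all genes also higher. The sum over large subunit genes was 1.39 ± 0.01 times that over small subunit genes for B6J, 1.38 ± 0.02 for B6J.*Gtpbp1*-/- and 1.38 ± 0.04 for B6J-*Gtpbp2*-/-, which is within the spread. Without the 3 most abundant genes of each subunit it was 1.45 ± 0.02, 1.39 ± 0.01 and 1.41 ± 0.04, and there the libraries of B6J.*Gtpbp1*-/- (1.39, 1.38 and 1.40) lay below those of B6J (1.44, 1.44 and 1.47). Per gene, the large subunit mean was 0.938, 0.927 and 0.932 of the small subunit mean. The SD of log2 TPM over the core genes was 0.986, 0.963 and 0.953, so the levels as counted were spread about as widely in each genotype. These sums, ratios and SDs leave out the near-identical copies. The copies took most counts of *Rpl12*, *Rps12* and *Rpl5*, the lowest core genes in B6J, so the SD is partly one of read assignment. It was not computed with copies added.

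In footprints the ratio was less steady. Without *Rps10* and *Rpl13a*, 45 large and 30 small subunit genes had a ratio of summed footprint CPM per kb of 1.32, 1.27 and 1.44 in B6J, 1.61, 1.504 and 1.42 in B6J.*Gtpbp1*-/- and 1.604, 1.39 and 1.56 in B6J-*Gtpbp2*-/-. Both mutants overlapped B6J, and a 3 against 3 exact permutation test cannot go below 0.10, so none was run. *Rpl41*, at 311, 249 and 457 footprint CPM per kb in B6J, 1121, 717 and 911 in B6J.*Gtpbp1*-/- and 1326, 741 and 1007 in B6J-*Gtpbp2*-/-, was the gene with the largest difference in that sum. Without the genes most abundant in RNA, which left 43 large and 27 small subunit genes, the means were 1.55, 1.75 and 1.78, beside 1.34, 1.51 and 1.52 with all.

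The paralogues ranged from as abundant as their core gene to undetected. *Rpl22l1* and *Rpl36al* were as abundant in RNA as *Rpl22* and *Rpl36a*, at 50.1 and 48.3% of the TPM of the pair in B6J, 48.1 and 47.5% in B6J.*Gtpbp1*-/- and 47.6 and 47.4% in B6J-*Gtpbp2*-/-. In footprints per kb, *Rpl22l1* kept 47.3, 46.5 and 48.5% of its pair. In coding sequence *Rpl22l1* matches *Rpl22* at 73.2% of aligned bases and *Rpl36al* matches *Rpl36a* at 87.7%, and neither shares a window of 30 bases with its partner. *Rpl36al* had 28.7 ± 3.70, 23.6 ± 3.30 and 21.6 ± 2.096% of its pair in footprints in the 3 genotypes. Its footprint CPM was 10.1, 10.1 and 10.2 in B6J, 10.5, 7.58 and 10.8 in B6J.*Gtpbp1*-/- and 7.03, 5.50 and 6.38 in B6J-*Gtpbp2*-/-, lowest in the 3 B6J-*Gtpbp2*-/- libraries, but the difference of -0.68 ± 0.30 did not pass (edgeR, adjusted p = 0.258).

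*Rpl7l1*, a relative of *Rpl7* with a role in ribosome assembly, had 12.6, 12.3 and 12.4% of the TPM of its pair in the 3 genotypes and 34.7, 36.7 and 40.9% of footprints per kb. *Rps27l*, known as a target of p53, had 10.395, 11.7 and 11.5% of TPM and 35.7, 37.5 and 34.6% of footprints per kb of its pair with *Rps27*. Footprint CPM of *Rps27l* was 23.04, 26.6 and 28.4 in B6J, 50.3, 34.9 and 41.6 in B6J.*Gtpbp1*-/- and 27.96, 25.8 and 28.9 in B6J-*Gtpbp2*-/-. The B6J.*Gtpbp1*-/- libraries were above all others, with a difference of 0.70 ± 0.22 that did not pass (edgeR, adjusted p = 0.171), and the direct test against B6J-*Gtpbp2*-/- gave 0.61 ± 0.20 (adjusted p = 0.344). Its RNA CPM was 6.97, 7.30 and 8.42 in B6J, 8.92, 9.10 and 10.2 in B6J.*Gtpbp1*-/- and 6.83, 10.3 and 11.1 in B6J-*Gtpbp2*-/-, with B6J.*Gtpbp1*-/- above B6J and B6J-*Gtpbp2*-/- overlapping both. The partner *Rps27* had footprint CPM of 39.8, 36.5 and 35.1 in B6J, 73.1, 49.03 and 47.1 in B6J.*Gtpbp1*-/- and 39.4, 58.6 and 31.8 in B6J-*Gtpbp2*-/-.

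The remaining paralogues were at the edge of detection. *Rpl10l*, a retrocopy of the X-linked *Rpl10* that is used in the testis, had 0 RNA counts and 0 footprints in all 9 libraries. *Rpl39l*, also a testis gene, had 12 RNA counts and 6 footprints over all libraries, and *Rpl3l*, the striated muscle form of *Rpl3*, had 141 and 16, or 0.142, 0.137 and 0.133% of the TPM of its pair in the 3 genotypes. EdgeR called none of the 6 paralogues tested in RNA and the 4 in footprints, and DESeq2 none of the 5 (6 between the mutants) and 4 that it tested, with 1 by edgeR at an unadjusted p under 0.05 in the RNA of B6J.*Gtpbp1*-/- (1 of 6, next to 26.3% of all genes) and 1 in the footprints of each mutant (1 of 4, next to 12.6 and 17.1%). *Rps27rt*, a copy of *Rps27* with an identical coding sequence (252 of 252 bases), had 73.5, 40.3 and 0 RNA counts in B6J, 47.6, 0 and 6.32 in B6J.*Gtpbp1*-/- and 25.7, 0 and 0 in B6J-*Gtpbp2*-/-, and 0 footprints in all. All 223 windows of its coding sequence occur in *Rps27*, so its reads cannot be told apart from those of *Rps27* there. *Rps4l*, which was on the list of paralogues, was not among the 85 because none of its transcripts is annotated as protein_coding, and its relative *Rps4x*, of the small subunit, did not pass in any comparison (RNA 0.09 ± 0.07 and footprints 0.26 ± 0.21 in B6J.*Gtpbp1*-/-).

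Core genes with roles beyond the ribosome body did not pass, apart from *Rpl5* and *Rps29*. Of the P-stalk, *Rplp1* had footprint CPM of 77.2, 67.4 and 142 in B6J, 124, 115 and 161 in B6J.*Gtpbp1*-/- and 74.2, 90.99 and 99.4 in B6J-*Gtpbp2*-/-. *Rplp2* had 107, 111 and 105 in B6J, 131, 111 and 162 in B6J.*Gtpbp1*-/- and 106, 113 and 88.4 in B6J-*Gtpbp2*-/-. *Rplp0*, the base of the stalk, had 85.9, 107 and 86.2 in B6J, 76.7, 66.6 and 95.8 in B6J.*Gtpbp1*-/- and 75.4, 70.4 and 68.1 in B6J-*Gtpbp2*-/-. For *Rplp1* B6J.*Gtpbp1*-/- overlapped B6J, for *Rplp2* replicates 1 and 3 of B6J.*Gtpbp1*-/- were above B6J and replicate 2 was level with it, and for *Rplp0* all B6J-*Gtpbp2*-/- libraries were below B6J while B6J.*Gtpbp1*-/- overlapped it. The footprint differences in B6J.*Gtpbp1*-/- were 0.47 ± 0.26, 0.33 ± 0.19 and -0.22 ± 0.20 (adjusted p = 0.497, 0.504 and 0.706), and *Rplp0* in B6J-*Gtpbp2*-/- had -0.39 ± 0.16 (adjusted p = 0.229).

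*Rps6*, whose phosphorylation is a readout of mTOR signalling, had footprint CPM of 34.7, 31.5 and 33.04 in B6J, 63.5, 31.5 and 28.2 in B6J.*Gtpbp1*-/- and 42.6, 38.8 and 33.1 in B6J-*Gtpbp2*-/-. In B6J.*Gtpbp1*-/-, replicate 1 stood above B6J while replicates 2 and 3 did not, and the difference was 0.31 ± 0.28 in footprints (adjusted p = 0.711) and 0.11 ± 0.07 in RNA (adjusted p = 0.389). *Rpl11*, the partner of *Rpl5*, had 47.9, 39.2 and 57.8 in B6J, 80.8, 47.4 and 67.9 in B6J.*Gtpbp1*-/- and 55.4, 47.3 and 50.8 in B6J-*Gtpbp2*-/-. The genotypes overlapped, and its differences in B6J.*Gtpbp1*-/- were 0.43 ± 0.23 in footprints (adjusted p = 0.478) and -0.09 ± 0.10 in RNA (adjusted p = 0.643), so its RNA did not move with that of *Rpl5*. *Rps27a*, a fusion of ubiquitin and a small subunit protein, had RNA CPM of 97.9, 105 and 98.8 in B6J, 126, 127 and 106 in B6J.*Gtpbp1*-/- and 106, 113 and 119 in B6J-*Gtpbp2*-/-. All B6J.*Gtpbp1*-/- libraries of *Rps27a* were above B6J, with 0.25 ± 0.08 (edgeR, adjusted p = 0.0617), and DESeq2 called it. *Rpsa*, also the laminin receptor, had 207, 223 and 252 in B6J, 249, 252 and 229 in B6J.*Gtpbp1*-/- and 222, 236 and 247 in B6J-*Gtpbp2*-/- and overlapped in RNA (0.10 ± 0.09, adjusted p = 0.557) and in footprints (0.32 ± 0.22, adjusted p = 0.602).

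*Fau* and *Rack1*, which encode small subunit proteins outside the naming rule, did not pass. They had footprint differences of 0.49 ± 0.20 (adjusted p = 0.316) and 0.38 ± 0.18 (adjusted p = 0.425) in B6J.*Gtpbp1*-/- and 0.05 ± 0.18 and 0.06 ± 0.15 in B6J-*Gtpbp2*-/-.

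Genes that assemble ribosomes were examined beside the ribosomal protein genes. Of 40 ribosome biogenesis genes, 12 rose in B6J.*Gtpbp1*-/- (*Eif6*, *Fbl*, *Gnl3*, *Heatr1*, *Lsg1*, *Nmd3*, *Nop58*, *Npm1*, *Polr1a*, *Rrp12*, *Rrp9* and *Rrs1*), none fell by edgeR, and the median was 0.21, where 13.8% of all genes were called, while in B6J-*Gtpbp2*-/- 4 rose (*Gnl3*, *Nmd3*, *Nop58* and *Rrs1*) with a median of 0.14, where 8.63% of all genes were called. DESeq2 called 13 in B6J.*Gtpbp1*-/-, among them *Nop10*, which was lower by edgeR without passing (-0.39 ± 0.14, adjusted p = 0.0829), and 8 in B6J-*Gtpbp2*-/-, next to 4284 of 24577 and 3409 of 24859 among all genes. *Nop58*, a core protein of box C/D snoRNPs, had TPM of 49.7, 48.8 and 49.8 in B6J, 65.1, 95.3 and 96.7 in B6J.*Gtpbp1*-/- and 63.4, 98.3 and 94.8 in B6J-*Gtpbp2*-/-. *Rrs1*, which brings 5S rRNA with *Rpl5* and *Rpl11* into the large subunit, had TPM of 13.8, 13.1 and 12.1 in B6J, 22.5, 26.7 and 29.1 in B6J.*Gtpbp1*-/- and 20.5, 26.7 and 25.5 in B6J-*Gtpbp2*-/-. All mutant libraries of both genes were above B6J, with log2 differences of 1.11 ± 0.08 (adjusted p = 1.4e-06) and 0.84 ± 0.12 (adjusted p = 0.000341) in B6J.*Gtpbp1*-/- and 0.95 ± 0.12 (adjusted p = 0.000836) and 0.74 ± 0.13 (adjusted p = 0.00435) in B6J-*Gtpbp2*-/-. In footprints edgeR called none of the 40 in either mutant, with medians of 0.12 and 0.31 and 1 and 7 genes at an unadjusted p under 0.05 (2.5 and 17.5%, next to 12.6 and 17.1% of all genes), and DESeq2 called 0 in B6J.*Gtpbp1*-/- and 1 in B6J-*Gtpbp2*-/-, *Rrs1*. TE medians were -0.09 and 0.12, with 0 called by edgeR, 3 and 2 at an unadjusted p under 0.05 (7.5 and 5%, next to 8.94 and 12.02% of all genes), and 0 and 1 (*Eif6*) called by DESeq2.

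Other 5′TOP genes, which encode translation factors and related proteins, were mixed. Of 17 in RNA, *Npm1* rose (0.28 ± 0.07, adjusted p = 0.0250) and *Hnrnpa1* fell (-0.46 ± 0.07, adjusted p = 0.000830) in B6J.*Gtpbp1*-/-, and *Hnrnpa1* fell in B6J-*Gtpbp2*-/- (-0.32 ± 0.08, adjusted p = 0.0244), which makes 2 and 1 of 17 next to 13.8 and 8.63% of all genes, with a median of 0.07 in both. Of 16 in footprints, none passed by edgeR or DESeq2, with 3 and 4 at an unadjusted p under 0.05 (18.8 and 25%, next to 12.6 and 17.1% of all genes) and medians of 0.21 in B6J.*Gtpbp1*-/- and 0.04 in B6J-*Gtpbp2*-/-, next to 0.36 and 0.08 for the ribosomal protein genes. Their TE medians were 0.19 and 0.01. *Eef1a1*, the elongation factor that brings tRNA, had footprint CPM of 359, 381 and 437 in B6J, 604, 472 and 627 in B6J.*Gtpbp1*-/- and 511, 515 and 424 in B6J-*Gtpbp2*-/-, with 0.53 ± 0.18 in B6J.*Gtpbp1*-/- (adjusted p = 0.218).

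Of 10 regulators of these genes, *Eif4ebp1*, *Cdkn1a* and *Trp53* rose in the RNA of both mutants (3 of 10, next to 13.8 and 8.63% of all genes tested). In footprints edgeR called 1 in B6J.*Gtpbp1*-/- and 2 in B6J-*Gtpbp2*-/-, next to 0.745 and 2.94% of all genes. *Eif4ebp1*, the repressor of cap-dependent translation that mTOR inactivates, had TPM of 1.31, 2.30 and 1.14 in B6J, 19.9, 17.3 and 28.9 in B6J.*Gtpbp1*-/- and 15.3, 24.1 and 17.4 in B6J-*Gtpbp2*-/-. Every mutant library was above B6J, with 3.40 ± 0.29 in B6J.*Gtpbp1*-/- (adjusted p = 3.0e-05) and 3.26 ± 0.27 in B6J-*Gtpbp2*-/- (adjusted p = 5.2e-05), and its footprints rose in both (3.75 ± 0.54 and 3.05 ± 0.47, adjusted p = 0.00676 and 0.00304). *Cdkn1a*, the p53 target p21, had 1.87 ± 0.17 and 1.69 ± 0.19 in RNA and rose in the footprints of B6J-*Gtpbp2*-/- (1.94 ± 0.30, adjusted p = 0.00877), with 1.83 ± 0.40 in B6J.*Gtpbp1*-/- (adjusted p = 0.0775 by edgeR, while DESeq2 called it in the footprints of both mutants) and a difference between the mutants of -0.13 ± 0.46 (adjusted p = 0.945). *Trp53* itself had 0.89 ± 0.11 and 0.73 ± 0.12 in RNA, while *Mdm2* (0.00 ± 0.09 and 0.03 ± 0.10) and *Larp1*, which binds the 5′TOP (0.20 ± 0.07 and 0.12 ± 0.08), did not pass by edgeR, though DESeq2 called *Larp1* in B6J.*Gtpbp1*-/-. *Myc* had 0.85 ± 0.33 (adjusted p = 0.110) and 0.93 ± 0.28 (adjusted p = 0.0661) in RNA by edgeR, and DESeq2 called it in B6J-*Gtpbp2*-/-.

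Most RNA of the family came from transcripts annotated as coding. They made up 92.7 ± 0.31% of the TPM of the 85 genes for B6J, 92.0 ± 0.20% for B6J.*Gtpbp1*-/- and 92.1 ± 0.20% for B6J-*Gtpbp2*-/-, and transcripts marked for nonsense-mediated decay 2.84 ± 0.12, 3.49 ± 0.18 and 3.39 ± 0.19% (mean ± SD, n = 3). *Rpl5* was among 4 core genes with over 25% of TPM on retained-intron transcripts, at 39.6 ± 4.40% for B6J, 26.3 ± 1.43% for B6J.*Gtpbp1*-/- and 28.3 ± 2.07% for B6J-*Gtpbp2*-/-, so that this share was highest in B6J. With protein_coding transcripts alone the RNA difference of *Rpl5* in B6J.*Gtpbp1*-/- was 0.86. *Rps20* and *Rps16*, named because their values were seen, had the highest shares on retained introns in B6J, 83.6 and 81.5%, and *Rpsa* had 69.0, 68.7 and 68.3% of its TPM on decay transcripts in the 3 genotypes. These shares rest on how kallisto divided reads between transcripts of a gene.

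The starts of the genes were read from RefSeq (GRCm38.p6), since the 5′TOP tract lies at the start of transcription. Annotated starts were found for 65 of the 85 genes, and 40 of them (61.5%) had a C followed by at least 4 bases that are C or T beginning within 10 bases either side of a start, where 34.4% of all genes in the table did (9297 of 27025). The share was 58.8% for the large subunit (20 of 34), 60.9% for the small subunit (14 of 23) and 6 of 8 for the paralogues. The 30 bases around the start are shown for the genes that passed in RNA or footprints and were in the table, with the tract in capitals where it was found. *Rps29* and *Rpl23a* also passed and are named only.
Rps15a: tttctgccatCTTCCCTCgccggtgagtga
Rpl10a: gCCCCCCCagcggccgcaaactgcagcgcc
Rpl5: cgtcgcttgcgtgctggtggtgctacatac
Rps3a1: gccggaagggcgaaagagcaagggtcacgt
Rpl13: tttcgcctgattttgattggcgtttgagat
Rpl37a: ctcgccggtctaaaaccgcgcatgcgcatt
Rpl41: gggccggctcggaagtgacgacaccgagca
Rpl37: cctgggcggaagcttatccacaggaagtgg
They lie at chr7:118116128-118116157 (minus strand) for *Rps15a*, chr17:28328461-28328490 (plus) for *Rpl10a*, chr5:107900518-107900547 (plus) for *Rpl5*, chr3:86142649-86142678 (minus) for *Rps3a1*, chr8:123102340-123102369 (plus) for *Rpl13*, chr1:72711250-72711279 (plus) for *Rpl37a*, chr10:128549149-128549178 (minus) for *Rpl41* and chr15:5116603-5116632 (plus) for *Rpl37*. A run was found in 2 of these 8 windows, *Rps15a* and *Rpl10a*. That of *Rps15a* begins at the annotated start, while that of *Rpl10a* lies upstream and ends before the start, so it would not be in an mRNA begun there. Runs that end before the start were also counted in the shares above. *Rpl10a* has a second annotated start (chr17:28328555-28328584, plus strand), and the tract was not found there. A window without it says only that these letters are not near the annotated start.

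The pair *Rps27* (chr3:90213629-90213658, minus strand) and *Rps27rt* (chr9:114982720-114982749, minus strand) is shown because both have the tract and their starts are alike, which bears on how their reads were split. The bases after the tract are the same in both windows.
Rps27: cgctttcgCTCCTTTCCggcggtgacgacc
Rps27rt: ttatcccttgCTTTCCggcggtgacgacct
The core genes lie on 19 chromosomes, with 14 of the 77 on chromosome 7, so no cluster holds the family.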

How the data were processed

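The authors made 9 RNA and 9 footprint libraries, and their processing notes give the upstream steps. For RNA they deposited estimated counts, TPM and effective lengths per transcript from kallisto 0.42.4. For footprints the authors deposited counts per gene, after removal of ribosomal RNA with Bowtie2 2.2.3, mapping to mm10 with HISAT2 2.1.0 and counting on coding sequence with featureCounts, whose options on reads with several places are not given in the sources used here.

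From these files, estimated counts were summed per gene and rounded, and genotypes were compared with edgeR 4.0.16 (R 4.3.3; TMM, robust quasi-likelihood fit) on every gene that reached 5 counts in 3 or more of its 6 libraries, with Benjamini-Hochberg adjustment and a threshold of 0.05. TE was the interaction of assay and genotype over 12 libraries, on genes reaching 10 counts in 3 of the 6 libraries of each assay, with names starting with Hist left out. Depths were as given in the report. Positions came from Gencode release 21 and start windows from RefSeq. The rest was computed with Python 3.11.15, numpy 2.4.6, pandas 2.3.3, scipy 1.17.1, numba 0.67.0, biopython 1.88 and matplotlib 3.10.9, and the fits were tested on simulated data.

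The genes and lists were chosen with earlier results of these data known. Genes were named by a rule: core genes past the threshold (up to 5 in each direction and comparison), the paralogues with their core genes, the 3 highest and 3 lowest core genes by TPM in B6J, and *Rpsa*, *Rplp0*, *Rplp1*, *Rplp2*, *Rps6*, *Rps27a*, *Rps29*, *Rpl5* and *Rpl11* for their roles. The others were named after their values were seen. Alternatives were DESeq2 1.42.0, upper quartile scaling, no filter, another filter and TMM within each assay for TE, the replicate number as a block, sex read from *Ddx3y* (male above 10 CPM), leaving out each library, protein_coding transcripts alone, an offset for transcript length and pseudogenes named -ps added. Library totals without TMM and all near-identical genes added were chosen after seeing the data.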

Additional observations from a re-analysis of the deposited data

How the results depend on the processing

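No called gene changed direction under an alternative, while counts of genes called and some medians moved. Where no count over all genes is given for a setting, here or above, a change in the number called is not read as particular to the family. In the RNA of B6J.*Gtpbp1*-/-, 8 genes were called at first, 14 with DESeq2, 15 with upper quartile scaling, 18 with library totals, 13 with no filter and 4 with sex as a covariate. Leaving out 1 library gave 3 (without B6J replicate 1) to 9 (without B6J.*Gtpbp1*-/- replicate 3). In the RNA of B6J-*Gtpbp2*-/-, 1 gene was called at first, 4 with DESeq2, 3 with upper quartile scaling, 11 with library totals, 2 with no filter, 3 with protein_coding transcripts alone and 0 with near-identical genes added, and 0 (without B6J replicate 1) to 3 (without B6J-*Gtpbp2*-/- replicate 1) with 1 library left out. Between the mutants none was called in RNA under any setting.

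In the footprints of B6J.*Gtpbp1*-/-, 2 genes were called at first, 4 with DESeq2 and 1 with sex, and 0 to 2 with 1 library left out, the 0 without B6J.*Gtpbp1*-/- replicate 1 or B6J replicate 1 or 2. In the footprints of B6J-*Gtpbp2*-/- the count was 1 at first, 2 with DESeq2, 2 with no filter and 0 with sex, and 1 to 6 with 1 library left out, the 6 without B6J replicate 3. DESeq2 called 1 in footprints between the mutants, and in TE 3, 2 and 3 where edgeR called 0. With 1 library left out TE gave 0 to 1 in each mutant, the 1 being *Rpl41* without B6J replicate 3.

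The replicate block gave 5 genes in the RNA of B6J.*Gtpbp1*-/- and 2 (*Rpl5* and *Rpl13*) in that of B6J-*Gtpbp2*-/-, 1 (*Rpl41*) in the footprints of B6J.*Gtpbp1*-/- and 2 (*Rpl29* and *Rpl41*) in those of B6J-*Gtpbp2*-/-. Within an assay, same-numbered libraries of different genotypes gave little sign of pairing. Of their correlations, 2 of 9 were over 0.1 in RNA (range -0.16 to 0.36) and 3 of 9 in footprints (range -0.32 to 0.16). By *Ddx3y*, the male RNA libraries were B6J.*Gtpbp1*-/- replicates 1 and 2 and B6J replicate 2. B6J.*Gtpbp1*-/- replicate 2 was thus male in RNA and female in footprints, and B6J replicate 1 the reverse. Those numbers do not mark the same mouse in both assays.

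Medians of the family moved with library totals (0.15 in the RNA of B6J.*Gtpbp1*-/- and 0.13 in that of B6J-*Gtpbp2*-/-) and, between the mutants in RNA, with sex (-0.076). The sign of 2 small medians changed, that between the mutants in RNA (0.02) with sex and without B6J.*Gtpbp1*-/- replicate 1 (-0.02), and that of TE in B6J-*Gtpbp2*-/- (0.05) without B6J-*Gtpbp2*-/- replicate 1 (-0.05). With 1 library left out they were 0.00 to 0.07 and 0.01 to 0.04 in the RNA of B6J.*Gtpbp1*-/- and B6J-*Gtpbp2*-/-, -0.02 to 0.05 between the mutants, 0.23 to 0.50 and 0.01 to 0.17 in footprints, 0.18 to 0.39 between the mutants in footprints, and 0.25 to 0.49, -0.05 to 0.14 and 0.21 to 0.43 in TE. Without the 3 most abundant genes of each subunit, the TPM ratio of large to small was 1.45 for B6J, 1.39 for B6J.*Gtpbp1*-/- and 1.41 for B6J-*Gtpbp2*-/-, the core share of TPM was 2.18, 2.59 and 2.50% and, with the same genes taken out, the footprint ratios were 1.55, 1.75 and 1.78 in B6J, B6J.*Gtpbp1*-/- and B6J-*Gtpbp2*-/-.

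The limits are these. There were 3 libraries a genotype, assay and batch coincide, and all B6J-*Gtpbp2*-/- libraries were female. Reads of ribosomal protein genes also fit copies elsewhere, and how such footprints were counted is not given in the sources used here. TE sets pseudo-aligned RNA counts against footprints mapped to the genome. The cause of the footprint differences was not tested.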
